A study of Rattus norvegicus with 172 samples.

Results

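The comparison described here set dentate granule cells of 6 rats taken at day 1 after status epilepticus against those of 6 control rats of the same laboratory. In this laboratory kainic acid started the seizures and status epilepticus, a prolonged unbroken seizure state, was left to end by itself. The arrays were chosen by the laboratory and day in their labels, and these 12 rats are part of 164 rats on 172 arrays in the series. Every gene that passed the filter on low values was tested, 10758 in all.

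All rats were male Sprague-Dawley animals of 175 to 250 g, from Charles River for this laboratory. The day 1 rats had received kainic acid at 5 mg/kg into the peritoneum each hour until status epilepticus began, after 5 or 6 injections, and it lasted 6 to 8 h. The controls received saline by the same route. Granule cells were cut by laser from 10 to 16 stained hippocampal sections of 10 µm per rat, RNA was kept where its integrity number was over 7, at least 10 ng was amplified, and biotin-labelled product was hybridised to one-colour Affymetrix arrays. Day 3 and day 10 rats of the same laboratory, with the same treatment and the same controls, are given as values beside the day 1 results. A further laboratory, with rats from Harlan, a first dose of 7.5 mg/kg, and pentobarbital to stop seizures 90 min after onset, supplied its own 6 day 1 and 6 control rats. Laser capture takes a cell layer and not single cells, so glial processes, vessels and interneurons of that layer can enter the sample. Fewer cells of a type and less RNA per cell cannot be told apart in such samples.

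Granule cells are the excitatory principal neurons of the dentate gyrus and the gate through which cortical input reaches the hippocampus. Kainic acid acts on a class of glutamate receptors and drives seizures in which these cells fire intensely. Such firing switches on immediate early genes within minutes to hours, and later changes neuropeptides, growth factors, ion channels and matrix proteins, while glia around the neurons react with their own genes.

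The median signal of an array was 30.7 ± 1.88 in controls and 30.6 ± 1.96 on day 1 (mean and SD, n = 6 each), with an exact two-sided permutation p of 0.961. For the array's Gapdh controls, the signal near the 3′ end over that near the 5′ end, a sign of RNA length, had a log2 value of 1.5 ± 0.381 in controls and 1.11 ± 0.151 on day 1 (exact permutation p = 0.0216, 0.0648 adjusted over 3 checks, where 924 splits allow no p below 0.00216). With that ratio in the model, 2335 genes passed in place of the 3248 given below, and where it moves a list count by over 1.5 times that count is given beside the list. Control rat 5 and day 1 rat 1 were the least like their groups, at median correlations of 0.978 and 0.977 against at least 0.985 for the other 10 rats. The summed signal of 7 markers of choroid plexus and ependyma ran from 104 to 3620 in controls and from 88.3 to 4230 on day 1, with control rat 5 and day 1 rats 1, 5 and 6 the highest. None of those 7 markers passed the test.

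On day 1, 3248 of the 10758 genes (30.2%) differed from control at an adjusted p under 0.05 with limma, a linear model that shares information on spread between genes. Of these, 1824 were higher (17.0% of all genes) and 1424 were lower (13.2%). At least 2-fold differences that also passed were seen in 273 genes upward (2.54%) and 207 downward (1.92%). In 960 genes (8.92%) all 6 day 1 rats lay above all 6 controls, and in 769 (7.15%) they lay below. The median difference over all genes was 0.04, so a difference is close to one measured against the typical gene. All differences are log2(signal + 16) on day 1 minus control, a scale that understates the change of dim genes, and folds are read from the same scale. Without control rat 5 the count was 3151, and without day 1 rat 1 it was 3059.

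**Figure D1:**
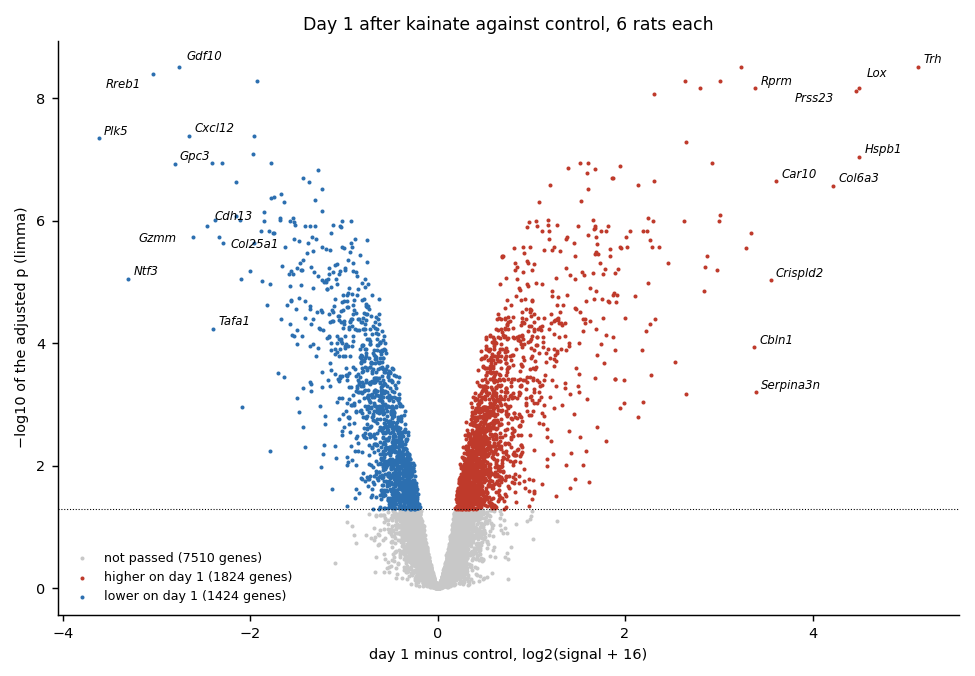
Each point is 1 of 10758 genes, plotted by its day 1 minus control difference in log2(signal + 16) (x axis) against the −log10 of its limma adjusted p (y axis), with 6 rats in each group. The 1824 higher genes are red, the 1424 lower genes blue, genes that did not pass grey, and the dotted line is the threshold of 0.05; Trh lies farthest right at 5.13 and Plk5 farthest left at -3.62.

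Neuropeptides gave the largest single rise. Thyrotropin-releasing hormone, Trh, a peptide that also acts in the brain outside the thyroid axis, had array signals of 28.8, 53.4 and 97.1 in controls (lowest, median, highest) and of 1860, 2420 and 2750 on day 1. No day 1 rat came near a control, and the rise was 5.13 ± 0.206 (log2, SE), or 35.0-fold, at an adjusted p of 3.04e-09. Neuropeptide Y, Npy, which dampens glutamate release in the hippocampus, had signals of 82.3, 167 and 207 in controls and 690, 1070 and 1970 on day 1. The groups did not overlap and Npy rose by 2.85 ± 0.282 (adjusted p = 5.74e-06). Npy is also a marker of interneurons, and it was the 1 of 11 measured interneuron markers that rose, while 0 fell. Without control rat 4, 3 of these markers fell, and without control rat 6 or day 1 rat 5, 1 fell.

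Among 25 measured genes of neuropeptides, their receptors and their processing, 8 rose, 7 fell and 10 did not pass, with a median difference of 0.21. That is 60% changed, beside 30.2% of all genes. The opioid precursors moved in opposite directions. Proenkephalin, Penk, rose from a median signal of 454 to 1580, with the highest control at 588 and the lowest day 1 rat at 1110, a difference of 1.75. Prodynorphin, Pdyn, the dynorphin precursor of granule cells, had signals of 507, 1040 and 2000 in controls and 131, 224 and 420 on day 1. All 6 day 1 rats lay below all controls for Pdyn, which fell by 2.09 ± 0.390 (adjusted p = 0.00109), and its controls were themselves spread over a log2 SD of 0.90. The tachykinin Tac3 rose by 1.50 and galanin, Gal, by 0.86, as did the granule proteins Chga (1.34) and Chgb (0.69) and the prohormone convertase Pcsk2 (0.92).

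For both peptides with the largest rises, receptor genes were lower. The receptor of Trh, Trhr, fell by 1.09, from signals of 34.7, 78.3 and 219 in controls to 19.5, 30.1 and 44.3 on day 1, and 5 of 6 day 1 rats lay below every control. The neuropeptide Y receptors Npy1r and Npy5r fell by 0.96 and 0.74, with medians of 427 against 192 for Npy1r and 222 against 131 for Npy5r. Adcyap1, the precursor of the peptide PACAP, fell by 1.02, and neuromedin B, Nmb, by 0.78. Scg3 of secretory granules fell by 0.39.

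**Figure D2:**
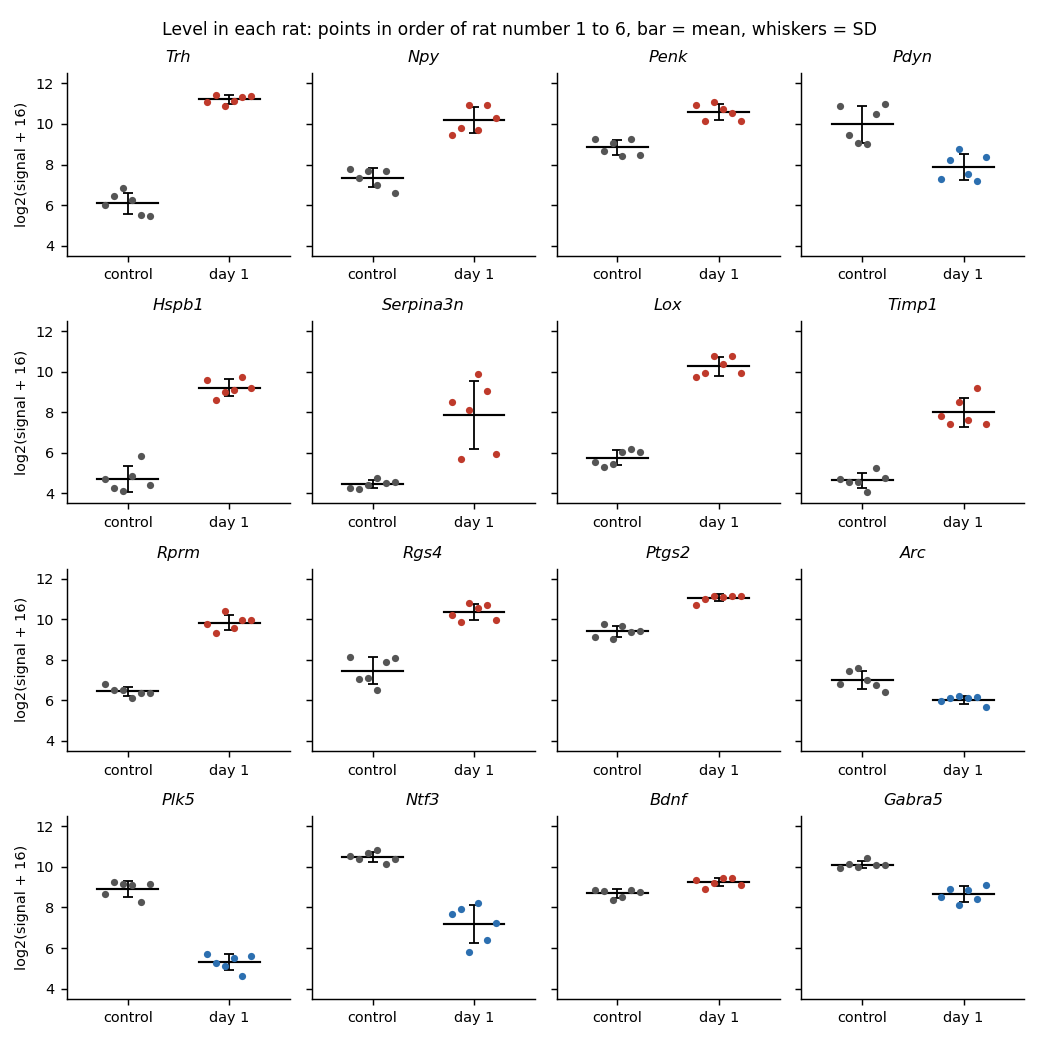
The level of 16 genes in each rat in log2(signal + 16) (y axis), with controls in grey and day 1 rats in red where the gene was higher and blue where it was lower; bars are means and whiskers SD, n = 6. Trh, Hspb1 and Lox separate the groups most widely, Serpina3n spreads from 5.70 to 9.87 among the day 1 rats, and the groups of Bdnf lie closest together without overlap.

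Growth factors also split by member. Neurotrophin 3, Ntf3, which in the adult hippocampus is made mainly by granule cells, had signals of 1110, 1420 and 1790 in controls and 39.2, 162 and 280 on day 1. The groups lay far apart, and Ntf3 fell by 3.30 ± 0.343 (adjusted p = 8.81e-06), with day 1 rats 3 and 5 the lowest. Brain-derived neurotrophic factor, Bdnf, had signals of 310, 426 and 455 in controls and 472, 604 and 687 on day 1. The groups of Bdnf did not overlap and it rose by 0.56 ± 0.118 (adjusted p = 0.00262), though a second probe set did not pass (0.16, adjusted p = 0.336). With the spread taken from all 24 rats of the laboratory, the adjusted p of Bdnf was 0.134. That spread takes in the day 10 rats, whose log2 SD for Bdnf was 0.97, against 0.21 in controls and 0.21 on day 1. Ntrk2, which encodes the BDNF receptor TrkB, fell by 0.55.

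Of 22 measured growth factors and receptors, 5 rose, 8 fell and 9 did not pass, at a median of -0.16. Changed members made up 59.1%, beside 30.2% of all genes. Besides Bdnf the risers were fibroblast growth factor 1, Fgf1 (2.28), the activin subunit Inhba (1.52), the angiogenic factor Vegfa (1.36) and the EGF receptor ligand Tgfa (0.78). Inhba went from a highest control signal of 237 to a lowest day 1 signal of 462. Gdf10, a factor of the TGF-beta family, fell by 2.76 ± 0.108, from signals of 153, 170 and 203 to 5.67, 11.7 and 17.2, below the array median in all 6 day 1 rats. Egfr fell by 1.58, Igfbp5 by 1.70 and the activin antagonist Fst by 0.97.

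Among immediate early transcription factors, Fos, the classic marker of recent firing, had signals of 24.6, 62.6 and 109 in controls and 27.9, 61.2 and 196 on day 1, so that the groups overlapped, and its difference of 0.13 ± 0.338 did not pass (adjusted p = 0.815). Of 26 measured members 6 rose, 3 fell and 17 did not pass, at a median of 0.18, a changed share of 34.6% that is near the 30.2% of all genes. The risers were Fosl2 (1.56), Ier2 (1.10), Klf10 (0.90), Fosb (0.72), Klf6 (0.71) and Atf3 (0.55). Nr4a3, a nuclear receptor, fell by 1.43, and Egr4 and Myc each fell by 0.37. One of the 3 probe sets of Nr4a3 did not pass (-0.27, adjusted p = 0.205).

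Effector genes of the same early programme encode enzymes and regulators in place of transcription factors. They numbered 11 higher and 2 lower of 19 (68.4%, beside 30.2% of all genes), at a median of 0.38. With the spread of all 48 kainate rats 6 were higher and 1 was lower. Rgs4, which shortens G-protein signals, had signals of 75.9, 172 and 265 in controls and 927, 1320 and 1750 on day 1, and it rose by 2.88 ± 0.271 (adjusted p = 3.66e-06). Ptgs2, the inducible cyclooxygenase that makes prostaglandins, went from 505, 659 and 843 to 1670, 2220 and 2280 and rose by 1.65 ± 0.130. Neither gene had overlapping groups. Gadd45a, a growth arrest and DNA damage gene, rose by 2.05 and its relative Gadd45b by 0.95. The 2 that fell were Arc and Nrn1 (-0.78). Arc, whose product removes AMPA receptors from synapses, had signals of 69.1, 105 and 175 in controls and 34.9, 54 and 57.3 on day 1, with no overlap and a difference of -0.97 ± 0.177 (adjusted p = 0.000922). With the spread of all 24 rats of the laboratory, the adjusted p of Arc was 0.176. That spread takes in the day 10 rats, whose log2 SD for Arc was 1.89, against 0.44 in controls and 0.20 on day 1.

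Of 24 measured chaperones 10 rose, 0 fell and 14 did not pass, at a median of 0.18, where 17.0% of all genes were higher and 13.2% lower. Without control rat 4, 1 chaperone passed as lower. The small heat shock protein Hspb1 led them, with signals of 1.15, 8.05 and 41.9 in controls and 368, 555 and 848 on day 1. It was above the array median in 1 of 6 controls and in all 6 day 1 rats, and rose by 4.50 ± 0.269 (adjusted p = 8.9e-08). The related alpha-B crystallin, Cryab, rose by 2.26, from a highest control of 177 to a lowest day 1 rat of 303. Bag3, a co-chaperone that links Hspa proteins to small heat shock proteins, rose by 1.25, Hspa2 by 1.03 and Hspa1a, the inducible 70 kDa protein, by 0.99. Smaller rises were those of Dnajb1 (0.42), Hspa4l (0.36), Stip1 (0.32) and Dnaja1 (0.30). Hspb8 rose by 1.26 ± 0.407 (adjusted p = 0.0305), but 4 of 6 day 1 rats overlapped the controls, control rat 5 reached 89.8 against a control median of 18.4, and the call was lost in 8 of 24 alternative settings. The mitochondrial chaperones Hspd1 and Hspe1 were at -0.05 and -0.04 and did not pass.

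Heat shock factor, the transcription factor that induces chaperones, binds inverted repeats of a short element, and the upstream sequences of the risers were read for it. Of the 10 risers, 9 had an entry in the RefSeq promoter table (build GRCr8), and 5 of these 9 held GAANNTTC on either strand in the 250 bases before the start of the gene. The same letters were found in 5 of 12 members that did not pass, in 4.68% of all 8969 tested genes with an entry, and in 7.02% of all 27457 promoters. The stretches that hold the match in the 5 risers are shown, on the strand of each gene, with the match in capitals and 20 bases on either side where the window allows.
Hspb1: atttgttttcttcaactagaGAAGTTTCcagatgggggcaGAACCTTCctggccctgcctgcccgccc
Hspb8: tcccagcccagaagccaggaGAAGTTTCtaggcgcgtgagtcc
Bag3: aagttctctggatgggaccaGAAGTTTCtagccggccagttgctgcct
Dnajb1: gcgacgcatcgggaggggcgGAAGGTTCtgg
Dnaja1: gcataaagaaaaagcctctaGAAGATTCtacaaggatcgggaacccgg
The Hspb1 stretch lies at chr12:26432383-26432450 on the minus strand and holds 2 matches, which start 129 and 109 bases before the gene. The Hspb8 stretch lies at chr12:45837265-45837307, the Bag3 stretch at chr1:192533308-192533355 and the Dnaja1 stretch at chr5:60638203-60638250, all on the plus strand, and the Dnajb1 stretch at chr19:41431142-41431172 on the minus strand. Hspa1a, Hspa2, Hspa4l and Stip1 had no such letters in this window.

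Among genes at least 2-fold higher, 17 of the 212 with a promoter entry (8.02%) held GAANNTTC, against 7 of 163 genes (4.29%) at least 2-fold lower. TGANTCA, the letters of an AP-1 site bound by Fos and Jun proteins, was in 8.49% of the 2-fold higher and 3.68% of the 2-fold lower genes, beside 4.14% of the genes tested. TGACGTCA, the full cAMP response element, was in 1.42% and 1.23% of them, beside 3.03% of the genes tested. The antioxidant response core TGACNNNGC was in 11.8% and 9.2%, beside 12.6%. These shares describe letters in a window, on both strands, and were not tested.

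Genes of other stress programmes changed at shares close to the 30.2% of all genes. Of 16 targets of Nrf2, the factor of the oxidative stress response, and metallothioneins, 5 rose and 1 fell (37.5%), at a median of 0.17. The metallothionein Mt2A rose by 1.09, from 111, 153 and 201 in controls to 211, 340 and 490, without overlap, and heme oxygenase, Hmox1, rose by 0.61. Sulfiredoxin, Srxn1, stood at 0.84 (adjusted p = 0.0386) and lost its call in 10 of 24 settings, while its second probe set stood at 0.85 (adjusted p = 0.000575). The cystine transporter Slc7a11 fell by 0.87. Without any 1 of control rats 1, 4 and 6 or day 1 rats 1 and 3, and with the Gapdh ratio in the model, 3 members of this list rose. Among 24 genes of the unfolded protein response 4 rose and 4 fell (33.3%). Ddit3, which encodes the death-associated factor CHOP, fell by 1.16, from a median of 324 to 138, and the disulfide isomerase Pdia6 fell by 0.61. The risers, led by Manf at 0.40, numbered 2 without control rat 3 or 6, without day 1 rat 2 or 3, or with the Gapdh ratio in the model.

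Of 39 measured proteasome subunits 18 rose, Psmd10 fell (-0.31) and 20 did not pass, with a median of 0.25, where 17.0% of all genes were higher. Psmd8 rose by 0.67, from 130, 174 and 195 in controls to 237, 262 and 341, and Psmb3 by 0.61, from 504, 583 and 672 to 766, 910 and 996. Neither had overlapping groups. With the Gapdh ratio in the model 11 subunits rose. The immunoproteasome subunit Psmb8 rose by 0.89, from dim signals with medians of 11.9 and 40.8, and did not pass with the Gapdh ratio in the model (adjusted p = 0.0558). Oxidative phosphorylation, at 3 higher and 0 lower of 43 and a median of 0.05, and ribosomal proteins, at 3 higher and 1 lower of 30 and a median of 0.08, had lower shares of changed genes than the 30.2% of all genes. Rps3 (0.29) and Rpl14 (0.28) were among the ribosomal risers, and Rps13 fell (-0.29). With the Gapdh ratio in the model Rpl14 and Rps13 did not pass (limma adjusted p = 0.229 and 0.0806). The risers in oxidative phosphorylation were Uqcrfs1, Ndufs3 and Ndufa8, and 1 gene of the list rose when control rat 2 or day 1 rat 1, 2 or 6 was left out or the Gapdh ratio was in the model, and 5 rose without day 1 rat 4.

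Matrix proteins and proteases held several of the largest rises, with 14 higher and 5 lower of 28 and a median of 0.51. This changed share was 67.9%, beside 30.2% of all genes. Lysyl oxidase, Lox, which cross-links collagen and elastin, had signals of 23.3, 40 and 55.9 in controls and 836, 1140 and 1740 on day 1. The rise was 4.50 ± 0.212 (adjusted p = 6.79e-09), and a second probe set rose by 4.55. The serine protease Prss23 went from 23.5, 56.8 and 103 to 1200, 1580 and 2030, a rise of 4.47 ± 0.213. The metalloprotease inhibitor Timp1 rose by 3.35, from a highest control signal of 21.8 to a lowest day 1 signal of 154, and Timp2 by 2.18. The groups of Lox, Prss23 and Timp1 lay far apart, while the highest Timp2 control, rat 5 at 268, came near the lowest day 1 rat at 333. Their target Mmp9 rose by 1.92 and the hyaluronan receptor Cd44 by 1.31. The collagen chain Col6a3, outside the list, rose by 4.22 and the secreted protein Crispld2 by 3.55.

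Cell surface heparan sulfate carriers changed in both directions. Syndecan 1, Sdc1, rose by 3.29, from signals of 12.2, 18.3 and 25.9 to 196, 235 and 742. Syndecan 4 rose by 0.83 and glypican 1 by 0.68. Glypican 3, Gpc3, fell by 2.81 ± 0.176, from 106, 164 and 244 to 3.6, 9.78 and 19.4, and dropped below the array median in all 6 day 1 rats. Glypican 4 and syndecan 2 fell by 0.48 and 0.25. The transmembrane collagen Col25a1 fell by 2.33 and brevican, Bcan, by 0.99. With the Gapdh ratio in the model 3 genes of the matrix list fell in place of 5.

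Adhesion and axon growth genes numbered 7 higher and 11 lower of 28 (64.3%, beside 30.2% of all genes), at a median of -0.31. Cerebellin 1, Cbln1, which bridges neurexins to their postsynaptic partners, had signals of 1.13, 4.97 and 55.9 in controls and 72.7, 260 and 617 on day 1. It rose by 3.38 ± 0.475 (adjusted p = 0.000115) without overlap, with a wide spread in both groups, and its other probe set rose by 3.28. Car10, a secreted neurexin ligand of the carbonic anhydrase family, rose by 3.61 ± 0.243, and neurexin 3 itself, Nrxn3, by 0.75. The growth cone protein Gap43 rose by 1.68, from 283, 370 and 474 to 923, 1180 and 1580. Cadherin 13 fell by 2.46 ± 0.201, and all 3 of its probe sets fell. Semaphorin 3E fell by 1.64, Epha5 by 1.35 and the semaphorin receptor Nrp2 by 1.31.

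Inflammation and STAT3 signalling counted 9 higher and 1 lower of 21 (47.6%, beside 30.2% of all genes), at a median of 0.50. Serpina3n, a secreted protease inhibitor of reactive tissue, was dim in all controls at 2.73, 6.12 and 11.1 and reached 36.1, 300 and 922 on day 1. All 6 day 1 rats were above all controls, but they spread over a log2 SD of 1.68, the widest among the changed genes, with rats 2 and 6 at 5.70 and 5.96 and rat 4 at 9.87. The chemokine Ccl2 rose by 2.13, from a highest control of 6.68 to 18.2, 51.6 and 328. Stat3 itself rose by 1.66, from 98.6, 122 and 172 to 330, 454 and 632, and the tumour necrosis factor receptor Tnfrsf1a by 1.70. The interleukin 6 receptor, Il6r, fell by 1.16, and 2 genes fell without day 1 rat 1. With the Gapdh ratio in the model 5 genes of this list rose.

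Markers of glia moved beside these genes. Of 14 markers of microglia and macrophages 8 rose, P2ry12 fell (-0.85) and 5 did not pass (64.3% changed, beside 30.2% of all genes). With the filter on low values taken over the rats compared, 3 rose, and the dim marker Fcgr2b was not tested. The summed signal of the 14 markers was 329 to 1080 in controls and 702 to 1680 on day 1. Lyz2 rose by 1.89, with control rat 5 inside the day 1 range, and the Fc receptor gene Fcgr2b by 1.24, while Aif1, Csf1r and Tmem119 did not pass. Of 13 astrocyte markers the filament genes Vim (2.19) and Gfap (1.76) rose, 8 fell and 3 did not pass (76.9% changed). Gfap went from 399, 677 and 1160 to 2020, 2280 and 2590 without overlap. The connexin Gjb6 fell by 1.35, Ntsr2 by 1.04 and Aldoc by 0.97, and the summed signal of the 13 was 6160 to 9130 in controls and 5550 to 8320 on day 1. Of 9 endothelial markers Slco1a4 fell (-0.88), but 0 fell without control rat 1 or 6 or day 1 rat 1, 2 or 4, and 1 rose without control rat 5. Of 11 oligodendrocyte markers Opalin fell (-0.55), below the array median in all 12 rats, and with the spread of all 24 rats its adjusted p was 0.0674. Of 11 markers of pyramidal and mossy cells Spock1 rose (1.25) and Cpne4 fell (-0.93), with 2 higher without control rat 1 and 2 lower without control rat 4. The 1 measured blood marker, the haemoglobin gene Hbb, did not pass (-0.11). The part of glial RNA in the rises of Serpina3n, Ccl2 and the matrix genes was not tested.

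Markers of the granule cells were present in every sample, with 11 to 13 of 13 above the array median, and their summed signal ran from 12000 to 14600 in controls and from 7290 to 8480 on day 1, without overlap. Of the 13, 8 fell, Rasgrp1 rose (0.73) and 4 did not pass, a changed share of 69.2% beside 30.2% of all genes. With the Gapdh ratio in the model 0 rose. Plk5, a polo-like kinase gene expressed in granule cells, had signals of 292, 538 and 601 in controls and 8.8, 26.1 and 36.2 on day 1, with no overlap and a fall of 3.62 ± 0.202 (adjusted p = 4.5e-08). The synaptic organiser C1ql3 fell by 1.67 and the channel Trpc6 by 1.53. Calbindin, Calb1, the calcium buffer that marks mature granule cells, had signals of 1250, 1790 and 1890 in controls and 373, 685 and 1190 on day 1 and fell by 1.26 ± 0.235. Prox1, the transcription factor that sets granule cell identity, fell by 0.66 ± 0.106, with 1640, 1940 and 2410 in controls and 1100, 1230 and 1380 on day 1. Neither overlapped. Ntng1 (-0.48), Dsp (-0.31), Rfx3 (-0.27) and Jun (0.21) were the 4 that did not pass.

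Calcium handling had the largest share of falls among the pathway lists, with 15 lower, 3 higher and 10 not passed of 28 and a median of -0.34. Changed members made up 64.3%, beside 30.2% of all genes. The ryanodine receptor Ryr1, which releases stored calcium, had signals of 127, 154 and 250 in controls and 6.61, 24.9 and 33.8 on day 1 and fell by 2.30 ± 0.205. The inositol trisphosphate receptor Itpr1 fell by 1.74, from a lowest control of 849 to a highest day 1 rat of 392. The kinase kinases Camkk2 and Camkk1 fell by 1.50 and 1.04, and Camk2a, the alpha subunit of the main synaptic calcium kinase, by 0.97. Calml4 fell by 1.79, though day 1 rat 1 remained inside the control range. The risers were the calcineurin regulators Rcan2 (1.96) and Rcan1 (0.41) and the kinase Camk1 (0.84), and 5 members rose when control rat 5 was left out.

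Of 14 GABA genes 0 rose and 5 fell (35.7%), at a median of -0.19, beside 17.0% higher and 13.2% lower among all genes. Gabra5, a subunit of extrasynaptic GABA-A receptors, had signals of 970, 1070 and 1380 in controls and 261, 400 and 542 on day 1 and fell by 1.46 ± 0.156 (adjusted p = 1.12e-05). Gabrd, the delta subunit that carries tonic inhibition in granule cells, fell by 1.18, from 540, 673 and 729 to 212, 299 and 344. The chloride exporter Slc12a5, which keeps GABA inhibitory, fell by 0.67, the GABA-B subunit Gabbr1 by 0.47 and the GABA-degrading enzyme Abat by 0.31. None of the first 4 had overlapping groups. The subunits Gabra2, Gabra4, Gabrb1 and Gabrb2 did not pass.

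Of 21 glutamate receptor genes 0 rose and 7 fell, at a median of -0.29, and this share of 33.3% is near the 30.2% of all genes. The metabotropic receptor Grm3 fell by 1.47, from 64.1, 83.3 and 118 to 13, 20.4 and 30.7. The AMPA subunits Gria4, Gria1 and Gria2 fell by 0.95, 0.56 and 0.32, and Gria3 stood at 0.19 and did not pass. The NMDA subunit Grin2a fell by 0.84 with the probe set used, but a second probe set did not pass (0.21, adjusted p = 0.322), and Grin2b fell by 0.29. The kainate receptor genes Grik2, Grik4 and Grik5, whose products bind the drug itself, did not pass.

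Potassium channels numbered 10 higher, 7 lower and 18 not passed of 35, at a median of 0.05. That is 48.6% changed, beside 30.2% of all genes. Both directions occurred within the KChIP family of Kv4 channel subunits. Kcnip3, which also encodes the repressor DREAM, rose by 1.67 ± 0.139, from 160, 250 and 316 to 719, 802 and 940. Kcnip2 fell by 1.97 ± 0.116, from 1080, 1390 and 1430 to 259, 332 and 409, and Kcnip4 by 1.12, while the Kv4 pore genes Kcnd2 (-0.05) and Kcnd3 (0.14) did not pass. The groups overlapped for none of these 3 KChIP genes. The M-current gene Kcnq5 fell by 1.40 with the probe set used, and its other probe set did not pass (0.12, adjusted p = 0.474). Risers included Kcnh3 (0.91), Kcns1 (0.88) and Kcnn1 (0.74).

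Of 24 sodium, calcium and HCN channel genes 2 rose and 6 fell, and this share of 33.3% is near the 30.2% of all genes. The sodium channel subunit Scn4b fell by 1.44, from 123, 142 and 254 to 33.5, 45.5 and 83.6, and the calcium channel genes Cacng3 and Cacna1b by 0.89 and 0.81. The T-type channel gene Cacna1g rose by 1.07, from dim signals of 2.31, 3.24 and 14.2 to 21.8, 27.3 and 40.0, which were above the array median in 2 of 6 day 1 rats. The other riser was Scn9a (0.43), and 1 gene of this list rose without control rat 3 or 5, without day 1 rat 3, 4 or 5, or with the Gapdh ratio in the model. Vesicle and release genes had 4 higher and 4 lower of 21 (38.1%), with Vamp1 (0.72) and Syn1 (0.64) up and Syt4 (-0.75), Rab3a (-0.59) and the complexins Cplx1 (-0.58) and Cplx2 (-0.46) down, and 2 higher with the Gapdh ratio in the model, where Syn1 did not pass (adjusted p = 0.114). One of the 3 probe sets of Vamp1 did not pass (-0.04, adjusted p = 0.793).

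Reprimo, Rprm, a mediator of arrest in the cell cycle, had signals of 53, 71 and 94.5 in controls and 632, 908 and 1330 on day 1 and rose by 3.39 ± 0.159 (adjusted p = 6.79e-09). The cyclin kinase inhibitor Cdkn1a rose by 1.99, with control rat 5 at 160 against a control median of 45 and 4 of 6 day 1 rats above every control. In the list of arrest, p53 and cell death genes 7 rose and 2 fell of 21 (42.9%, beside 30.2% of all genes). The pro-death gene Bcl2l11 fell by 1.23 with the probe set used, while its other probe set did not pass (-0.05, adjusted p = 0.847). The genes that fell numbered 1 without control rat 4, without day 1 rat 2 or 5 or with the Gapdh ratio in the model, and 4 without day 1 rat 1. Of 11 proliferation markers 5 rose (45.5%), all by 0.63 or less, and 1 rose with the filter taken over the rats compared. Cdk1, Mcm2 and Mki67 were not tested with that filter, and Cdk1 and Mki67 stayed below the array median in all 12 rats.

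Genes of steroid hormones, the clock and sterols completed the lists. The glucocorticoid receptor gene Nr3c1 fell by 0.93, from a lowest control of 499 to a highest day 1 rat of 305, and among 20 receptors and targets 6 rose and 3 fell, with Pdk4 at 1.17 and Ddit4l at -2.31. Of 19 clock genes Bhlhe41 (0.97) and Npas2 (0.96) rose and 6 fell, with Hlf at -1.54. Of 25 genes of cholesterol synthesis and sterol control 8 fell and 1 rose, with Hsd17b7 at -0.72 and Apoe at -0.70, and the cholesterol exporter Abca1 rose by 1.47. The changed shares were 45% for the glucocorticoid list, 42.1% for the clock and 36% for sterols, beside 30.2% of all genes. Among all genes 17.0% were higher and 13.2% lower. With the Gapdh ratio in the model the adjusted p of Abca1 was 0.178, and its second probe set did not pass (0.19).

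**Figure D3:**
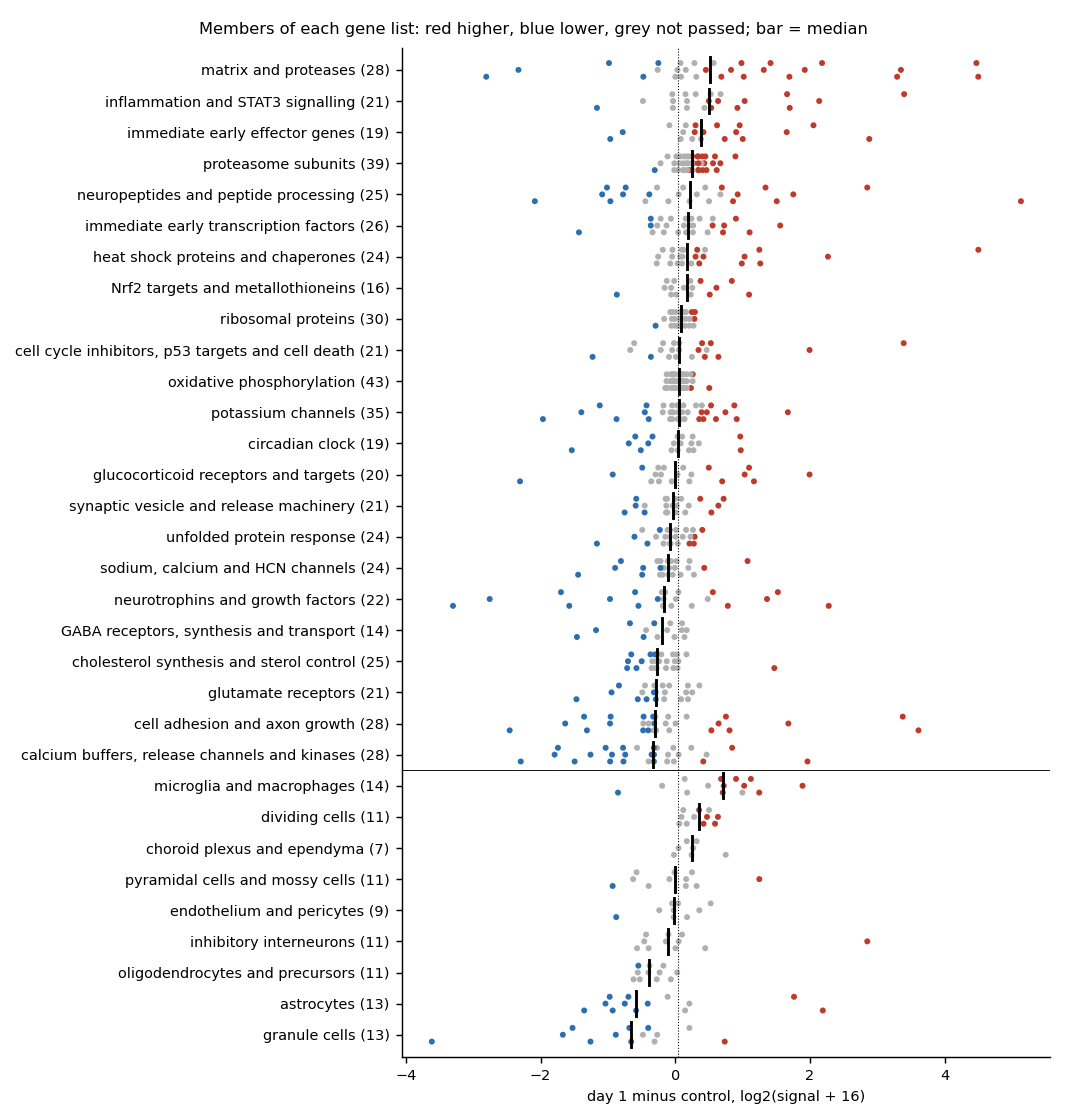
Each point is a measured member of 1 gene list, plotted by its day 1 minus control difference in log2(signal + 16) (x axis), with the number of members in brackets, list medians as black bars and the median of all genes as a dotted line. Pathway lists stand above the horizontal line and cell type markers under it; medians run from 0.51 for matrix and proteases to -0.34 for calcium handling, and from 0.71 for microglia to -0.66 for granule cells.

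Other large falls lay outside the lists. Rreb1, a zinc finger transcription factor gene, had signals of 581, 822 and 942 in controls and 58.6, 82.8 and 108 on day 1 and fell by 3.04 ± 0.128. The chemokine Cxcl12, which guides and holds immature granule cells, went from 1190, 1310 and 1470 to 154, 174 and 284 and fell by 2.65 ± 0.146. Its second probe set fell by 1.31. The secreted factor gene Tafa1 fell by 2.39 and the granzyme gene Gzmm fell by 2.61, to below the array median in all 6 day 1 rats.

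The order of the 6 day 1 rats is given as a description, since genes are not independent and no test was made. Among the 480 genes changed at least 2-fold, rat 3 had the most extreme value in the direction of the change in 32.1% and rat 5 in 30.8%, and rat 6 had the mildest value in 32.3%. Rat 5 had the mildest value in 3.96% of them. The median deviation of a rat from the group, in the direction of the change, was small, from -0.155 for rat 6 to 0.186 for rat 5 (log2). In 7 of the 20 genes with the 10 largest rises and 10 largest falls, rats 3 and 5 held both strongest values. For Npy these 2 rats were at 10.96 and 10.95 in log2(signal + 16), where the other 4 were at 9.46 to 10.31. For Ntf3 they were at 5.79 and 6.37, where the other 4 were at 7.25 to 8.21. Calb1 ran otherwise, as rats 3 and 5 had its highest day 1 levels at 10.24 and 9.92, and for Tafa1 likewise at 8.08 and 7.49. Serpina3n also had another order, with rat 4 highest and rats 2 and 6 lowest.

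At later days the same controls served, so the values of the days are given side by side. Trh was 5.13 above control on day 1, 1.92 on day 3 and 2.34 on day 10, and Prss23 was 4.47, 2.92 and 3.05, each with an adjusted p under 0.05 in the limma fit of all 24 rats of the laboratory. Hspb1 was 4.50 on day 1 and then 0.88 and 0.42, which did not pass (adjusted p = 0.145 and 0.547). Serpina3n, Crispld2 and Cbln1 were at most 0.49 from control on days 3 and 10 and did not pass there. Npy was at 0.76 on day 3, which did not pass, and at 1.68 on day 10, which did. The log2 SD of Npy was 0.27 on day 3 and 1.45 on day 10, so its day 3 p takes in the wider spread of day 10.

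Among the falls, Plk5 was -3.62 on day 1, -2.04 on day 3 and -1.98 on day 10, and Gdf10 was -2.76, -1.70 and -2.34. Gzmm was -2.61 on day 1 and 0.11 and -0.12 later, which did not pass. Ntf3 was -3.30, then -0.87 (adjusted p = 0.572), then -2.23 (adjusted p = 0.0242). Its log2 SD was 0.50 on day 3 and 1.86 on day 10, so the day 3 p takes in the wider spread of day 10. Gabra5 was -1.46 on day 1 and -0.42 and -0.18 later, and Calb1 -1.26, -0.44 and -0.83, with no later value of either past the threshold. Arc was -0.97, -0.24 and 0.71. Log2 SDs on day 3 and day 10 were 0.32 and 1.89 for Arc, 0.31 and 1.16 for Plk5, and 0.29 and 0.25 for Gabra5. For Calb1 they were 0.10 and 0.90, so its day 3 p also takes in the wider spread of day 10.

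**Figure D4:**
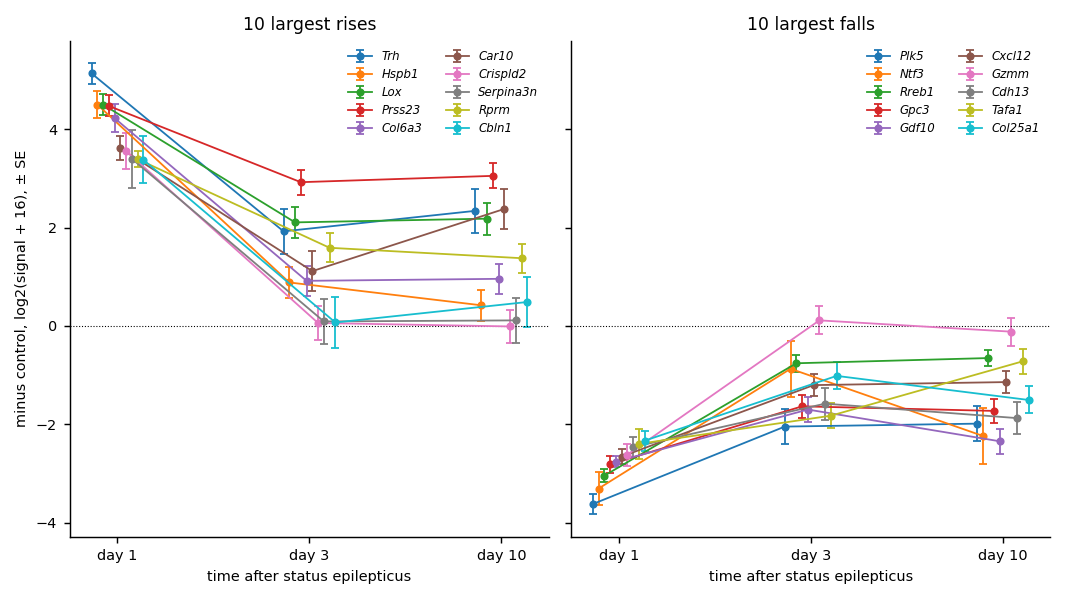
Differences from the shared controls in log2(signal + 16) (y axis) for the 10 genes with the largest rises (left) and the 10 with the largest falls (right) on day 1, at day 1, day 3 and day 10 (x axis, points shifted sideways for clarity); whiskers are SE, from the 12 rats compared for day 1 and from all 24 rats for later days. Trh, Prss23 and Lox lie at 1.92 or more on both later days, while Serpina3n, Crispld2 and Gzmm lie within 0.12 of control.

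The kainate laboratory that stopped status epilepticus had its own controls and gave a separate measurement of day 1. There 2491 of 10758 genes (23.2%) changed, and 1771 changed in the same direction in both laboratories, which is 54.5% of the 3248 genes of the self-ended laboratory and 71.1% of the 2491 of the stopped one. Changes in opposite directions were called for 0 genes. Across the 10758 genes, which are not independent replicates, the differences of both laboratories correlated at 0.851. Trh was 5.13 in the self-ended and 4.74 in the stopped laboratory, Hspb1 4.50 and 4.14, Lox 4.50 and 5.36, Plk5 -3.62 and -4.01, and Ntf3 -3.30 and -3.47.

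The test of the difference between the 2 laboratories' day 1 changes passed for 0 of 10758 genes with limma, with 995 at an unadjusted p under 0.05. The nearest were Ripor2 and Col11a1 at an adjusted p of 0.0597 each. Col11a1, a fibrillar collagen chain, was -0.34 ± 0.255 in the self-ended and 1.76 ± 0.251 in the stopped laboratory, a difference of -2.09 ± 0.378. Ripor2 was 0.36 and 1.14, and Ptgs2 was 1.65 and 2.82, a difference of -1.17 ± 0.232 (adjusted p = 0.0921). Without day 1 rat 5 of the stopped laboratory 5 genes passed, namely Col11a1, Ripor2, Ptgs2, Bhlhe41 and Cacna1g. Without its day 1 rat 4, 2 passed, and 1 passed without its control rat 1, its day 1 rat 2, or day 1 rat 5 of the self-ended laboratory. The laboratory, the supplier, the first dose and the length of status epilepticus differed together and cannot be told apart.

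**Figure D5:**
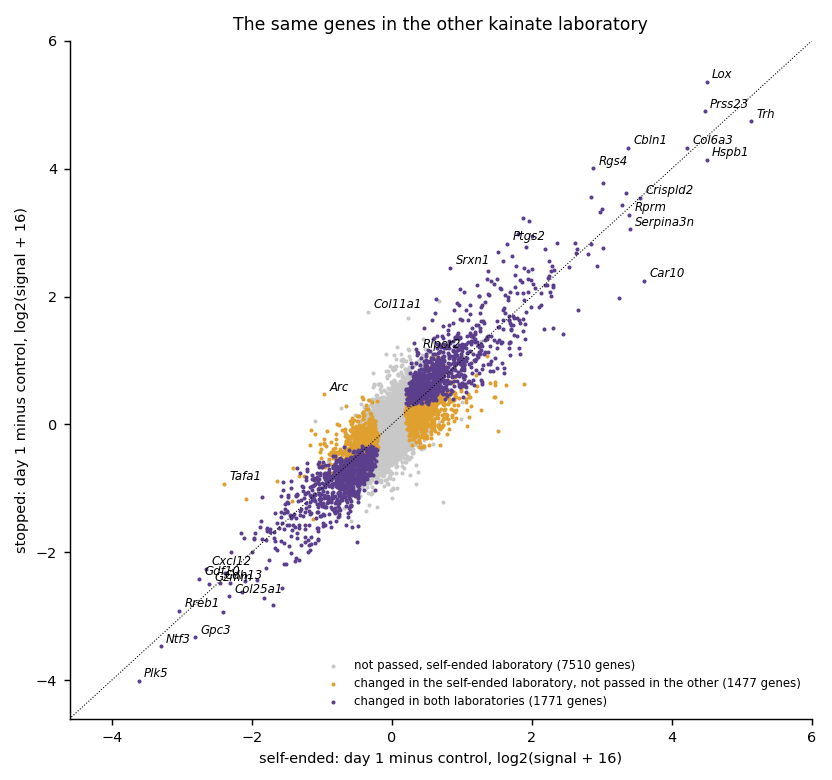
Each point is 1 of 10758 genes, plotted by its day 1 minus control difference in log2(signal + 16) in the self-ended laboratory (x axis) and in the stopped laboratory (y axis), with 6 rats per group in each. Purple points are the 1771 genes changed in both, orange points those that passed in the self-ended laboratory alone, and the dotted line marks equal differences; Trh, Lox and Plk5 lie near it, and Col11a1 at -0.34 and 1.76 lies far from it.

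Day 1 values of the series' pilocarpine laboratories, which stopped status epilepticus after 90 min and had their own controls, are set beside these for the early genes, without a test of the differences. Fos was 0.13 in the self-ended and 0.28 in the stopped kainate laboratory, and 3.71 and 0.67 in the pilocarpine laboratories, where the first of these passed (adjusted p = 0.00294). Arc was -0.97, 0.47, 1.71 and 0.15 in the same order, and Bdnf 0.56, 1.05, 1.80 and 0.46. Pdyn was -2.09, -1.17, 0.30 and -0.85, and it passed in the self-ended kainate laboratory alone of these 4. A pass in 1 laboratory alone does not show a difference between laboratories. In the test between the kainate laboratories given above, the difference of Pdyn was -0.92 ± 0.772 and did not pass (limma adjusted p = 0.735). Trh (5.13, 4.74, 4.64 and 3.86) and Plk5 (-3.62, -4.01, -3.36 and -3.41) passed in all 4.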

How the data were processed

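The authors deposited a linear intensity for each probe set, made with MAS5, per the submitters' processing notes, which give no version. On every array the mean after leaving out 2% at each end was 149.99, so the authors' scaling was kept. Of 31099 probe sets 57 were array controls, 20826 carried 1 gene symbol, 436 several and 9780 none, and those without a single symbol were not tested. Symbols came from GEO's platform annotation, and 20758 probe sets matched RefSeq by Entrez ID. A probe set was kept when it exceeded its array's median in at least 6 rats of the series (19941 did), and a gene was read from its probe set with the highest mean (2675 genes had several).

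A value of 16 was added before log2. Day 1 was compared with control by limma 3.58.1 in R 4.3.3 on these 12 rats, with Benjamini-Hochberg adjustment over 10758 genes and a threshold of 0.05, two-sided. Day 3 and day 10 came from a fit of all 24 rats, and the difference between kainate laboratories from 24 rats of both. The day 1 fit of 12 rats was tested on simulated data with independent genes, and the other fits were not. Replicates are rats, and the number of arrays limits the precision. The comparison and the gene lists were chosen with earlier results of these data known.

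The text names, among changed genes whose groups did not overlap, the 10 that rose most and the 10 that fell most, then up to 3 changed members of each list, and in every case Calb1, Prox1, Gfap, Npy, Bdnf, Arc and Fos. Gapdh also belonged to the rule but had no tested probe set. Other list members were named after their values were seen. Rats with the same number in both groups were not treated as pairs. Deviations of same-numbered rats correlated at 0.006 to 0.371, all positive, and 2 of 6 pairs were under 0.1. Control rats 2, 3 and 4 correlated best with the day 1 rat of their own number, and control rats 1, 5 and 6 with another. Whether same-numbered rats shared a factor was not tested. Promoter sequences are those of RefSeq, build GRCr8, searched over the 250 bases before each start. Plots were drawn with matplotlib 3.10.9.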

Additional observations from a re-analysis of the deposited data

Results flagged for a closer look

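In groups of 6 rats, 1 rat's gap to the nearest other exceeded Dixon's 95% limit in 13 of 194 groups of named genes, where chance gives about 1 in 20. Control rat 5 accounted for 8 of the 13, each time as the highest control, in log2(signal + 16). It stood at 6.26 for Col6a3 (next rat 5.28), 7.46 for Cdkn1a (6.14), 6.73 for Hspb8 (5.36) and 6.39 for Fgf1 (4.97). The same rat was at 8.72 for Lyz2 (next 7.19), 4.99 for Fcgr2b (4.36), 4.5 for Ccl2 (4.13) and 5.63 for Psmb8 (4.95). All 8 genes were higher on day 1, and without control rat 5 the comparison counted 3151 genes.

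The other 5 lay in other rats. Control rat 6 was lowest for Rreb1 at 9.22 and control rat 2 lowest for Rcan2 at 7.39. Day 1 rat 1 was lowest for Ptgs2 at 10.72 and highest for Nr4a3 at 5.55, and day 1 rat 2 was lowest for Opalin at 4.12.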

How the results depend on the processing

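The count of 3248 changed genes lay between 2322 and 3783 under the other settings tried, and between 2848 and 3171 when 1 rat was left out. The lowest came from a common spread over all 48 kainate rats. With the Gapdh ratio as covariate 65.6% of the calls were kept. When the median over a gene's probe sets was used, 2 genes (Brms1 and Stau2) were called in the opposite direction. With rat number as a block the count was 3783, and the block changed the call of no named gene. Counts of at least 2-fold changes followed the value added before log2, with 433 higher and 325 lower at 1, and 132 and 100 at 64, against 273 and 207. Of the 97 named genes 80 kept their call in all settings in which they were tested, and none reversed. Cdk1, Mcm2, Mki67, Pdk4, Ccl2, Fcgr2b, Opalin, Spock1 and Cacna1g were too dim for the filter over the rats compared. They were tested in the other 23 of 24 settings.

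The difference between kainate laboratories, 0 genes, became 2 with 64 added, with the filter on the rats compared, with the median over probe sets, with the block on rat number, and with a trended robust fit. It became 1 with all 48 rats and ran from 0 to 5 when 1 rat was left out, with 5 lacking day 1 rat 5 of the stopped laboratory. The Gapdh ratio difference of -0.394 ran from -0.457 to -0.271 when 1 rat was left out, and its exact p was over 0.05 without day 1 rat 4 (0.0649), 5 (0.0758) or 6 (0.0693). Among gene lists, the spread of all 48 rats left 3 growth factors higher, 0 immediate early transcription factors lower, 1 unfolded protein response gene higher, 3 matrix genes, 5 cholesterol genes and 3 clock genes lower, and 3 proliferation markers higher. The filter over the rats compared removes a gene that exceeds the array median in fewer than 6 of those rats. With it 0 granule cell and 0 pyramidal or mossy cell markers were higher and 0 oligodendrocyte markers lower. Spock1 and Opalin were removed by this filter and so were not tested with it. The cause of the other shifts was not tested.

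The scale of linear signals with 16 added limits dim genes: of the 10 largest rises, controls lay mostly below the array median for Hspb1, Col6a3, Crispld2, Serpina3n and Cbln1, so their folds rest on signals near background, for which no detection calls were used here.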
